A study of Drosophila melanogaster with 12 samples.

Results

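Flies break down phenylalanine and tyrosine by one chain of enzymes. The genes Hn, hgo and Faa stand for the first step, a middle step and the last step of that chain. They were chosen with earlier results from these same arrays known, among them the low hgo signal of the untreated mutant, so every value of theirs below is a description and carries no test. A probe set, the unit an Affymetrix array reports, was taken as belonging to one of the 3 genes where the platform annotation named that gene and no other. This gave 2 genes of 11983, each with 1 of the array's 18952 probe sets: hgo (CG4779, 2L:11136393-11138565, genome release 6) and Faa (CG14993, 3L:4072032-4073954). Hn matched no probe set and was not analysed here.

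RNA came from whole heads of Drosophila melanogaster and was read on 12 arrays in 4 groups of 3. Shu_50 is the mutant Shu at 50 mM and Shu_0 that mutant untreated. CS_50 is the wild-type strain CS given 50 mM lithium, and CS_0 is CS untreated. The label of Shu_50 gives the dose without a drug, and the series title names lithium. The gene annotation lists Shu and Shudderer among the names of para, the voltage-gated sodium channel. The allele, the sex, the age and the length of treatment were not given, nor whether replicates came from separate cultures, so errors here cover the spread between arrays, which may be technical. A head holds brain, eye, muscle, cuticle and fat body together, and fewer cells of a type cannot be told apart from less RNA per cell.

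Phenylalanine hydroxylase, encoded by Hn, turns phenylalanine into tyrosine with tetrahydrobiopterin as its cofactor. Tyrosine aminotransferase (Tat) removes the amino group, and Hpd makes homogentisate from the product. Homogentisate dioxygenase, encoded by hgo, opens the aromatic ring. Maleylacetoacetate isomerase, the role of zeta-class glutathione transferases, rearranges the opened chain, and fumarylacetoacetase (Faa) cuts it into fumarate and acetoacetate. Tyrosine is also the source of dopamine, tyramine and the pigments and cross-links of the cuticle, so the chain draws on the same amino acid as those uses. In humans, loss of homogentisate dioxygenase causes alkaptonuria and loss of fumarylacetoacetase causes tyrosinemia.

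Array medians lay between 23.9 and 25.8 intensity units, and replicates of a group correlated at 0.985 to 0.989 on the log2 scale. Of the 12 arrays, CS_0 replicate 3 and Shu_0 replicate 1 were the outermost on the first principal component (18.1% of the variance), and values without both stand beside the results whose call they change. The files hold no detection call per probe set. Differences are in log2(intensity + 6.16) with the SE of limma's fit (n = 3 arrays per group), and 11261 probe sets above a signal of 11.5 were tested. Both hgo and Faa were among them. A probe set counts as called when its Benjamini-Hochberg adjusted p in limma was under 0.05.

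The hgo signal was lower in the mutant than in the wild type, both without treatment and at 50 mM, and within each genotype it was higher at 50 mM. In Shu_50 heads it was 209, 202 and 214 intensity units. In Shu_0 heads it was 155, 154 and 147. In CS_50 heads it was 370.5, 320.3 and 318, and in CS_0 heads 316, 278 and 251. The 6 mutant arrays all lay below the 6 wild-type arrays, and the treated mutant stayed below the untreated wild type. The means were 208 ± 5.73 in Shu_50, 152 ± 4.52 in Shu_0, 336 ± 29.7 in CS_50 and 282 ± 32.6 in CS_0 (SD, n = 3 each). From low to high the order was Shu_0, Shu_50, CS_0 and CS_50, and the neighbours CS_50 and CS_0 were separated by 1.97 intensity units between their closest arrays, less than the SD of either group. The coefficient of variation of hgo over 3 arrays was 2.75% in Shu_50 and 2.97% in Shu_0, against 8.84% in CS_50 and 11.6% in CS_0. For Faa the mutant arrays were the wider ones. Its coefficients were 7.04% in Shu_50 and 4.69% in Shu_0, against 4.39% in CS_50 and 3.42% in CS_0.

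**Figure D1:**
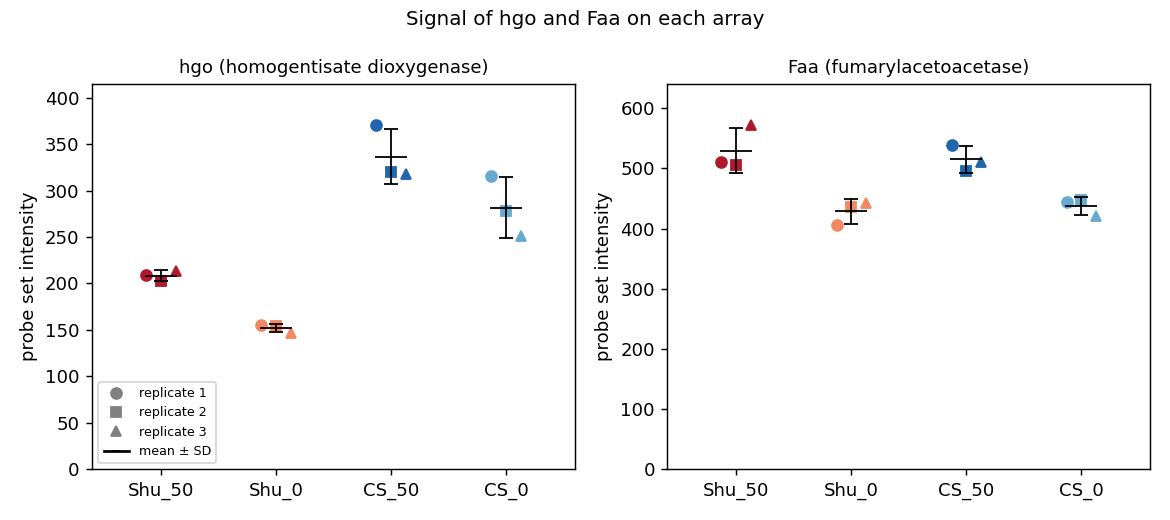
Probe set intensity of hgo (left) and Faa (right) on a linear axis from 0, by group. Points are arrays, marked by replicate number, and bars are the mean ± SD of 3 arrays. For hgo all 6 mutant arrays (147 to 214) lie below the 6 wild-type arrays (251 to 370.5), while for Faa the split is by treatment, with 50 mM arrays at 495 to 572 and untreated arrays at 406 to 448.

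Without treatment, the mutant's hgo mean was 54.0% of the wild type's (log2 -0.86 ± 0.09, SE). Of the 11261 probe sets tested, 39 had a more negative difference in this comparison. Faa differed little between the untreated genotypes, at 406, 436 and 443 in Shu_0 heads and 445, 448 and 420.4 in CS_0 heads (log2 -0.03 ± 0.07, 95% interval -0.17 to 0.11), and the arrays overlapped. The call in Shu_0 against CS_0 was met by 1 of the 2 probe sets, hgo, where 5.06% of all probe sets met it, and arrays that did not overlap were likewise seen in 1 of 2, against 23.2% of all. Nothing is read from these counts, since hgo was chosen with this difference known. Without CS_0 replicate 3 and Shu_0 replicate 1 the hgo difference was -0.95, and leaving out single arrays gave -0.77 (without CS_0 replicate 1) at the nearest to 0. The count of called probe sets over the whole array was 570, and 31 without those 2 arrays.

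At 50 mM, the mutant's hgo mean was 62.0% of the wild type's (Shu_50 against CS_50, log2 -0.67 ± 0.09), and 76 probe sets had a more negative difference. Faa was 510.0, 505 and 572 in Shu_50 heads and 539.5, 495 and 511 in CS_50 heads, a difference of 0.04 ± 0.07 (95% interval -0.10 to 0.18) with overlapping arrays. Again 1 of 2 probe sets was called, hgo, against 0.506% of all, and 1 of 2 had arrays that did not overlap, against 18.9% of all. Nothing is read from these counts either.

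In the mutant, both genes were higher at 50 mM than without treatment. The hgo mean was 1.37-fold that of Shu_0 (log2 0.44 ± 0.09), with a gap of 47.3 intensity units between the closest arrays of Shu_50 and Shu_0. The Faa mean was 529 ± 37.2 in Shu_50 and 428 ± 20.1 in Shu_0 (SD), a 1.24-fold difference (log2 0.30 ± 0.07) with a gap of 62.2 units. Of the 4 groups Shu_50 was the highest for Faa, then CS_50, CS_0 and Shu_0, and neighbours in this order overlapped except CS_50 and CS_0. Both probe sets were called in the mutant, where 1.86% of all were, and both had arrays that did not overlap, where 15.8% of all did. Nothing is read from these counts, since both genes were chosen with results of these arrays known. The call of Faa was lost without Shu_0 replicate 1, where its difference was 0.26, and without Shu_50 replicate 3, where it was 0.24. It was also lost without both outermost arrays (0.26) and in the fit on the arrays of the comparison alone (0.30). Neither gene was called when the fit had no intensity trend.

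In the wild type, the same direction was seen with smaller values. The hgo mean was 1.19-fold higher in CS_50 than in CS_0 (log2 0.25 ± 0.09), and the value ranged from 0.18 without CS_0 replicate 3 to 0.34 without CS_0 replicate 1. The Faa mean was 515 ± 22.6 in CS_50 and 438 ± 15.0 in CS_0 (SD), which is 1.18-fold (log2 0.23 ± 0.07), and the closest arrays were 47.4 units apart. Neither of the 2 probe sets was called, where 1.62% of all were. Both had arrays that did not overlap, where 19.1% of all did. Here too nothing is read from the counts. The difference between the 2 responses, mutant minus wild type, was 0.19 ± 0.12 for hgo (95% interval -0.07 to 0.44) and 0.07 ± 0.09 for Faa (95% interval -0.13 to 0.27). Neither was called in this interaction, where 0.00888% of all probe sets were, and nothing is read from that.

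Over the 12 arrays the Pearson r between the 2 genes was 0.41. The deviations of hgo and Faa from their group means correlated at 0.48, a description over arrays that share their group structure. The genes most like hgo, by Pearson r of log2 values over the 12 arrays, were Mid1 (0.93), TBC1D16 (0.92), the esterase gene Est-Q (0.92) and Pdk, the pyruvate dehydrogenase kinase (0.91). Each of these 4 was lower in Shu_0 than in CS_0, by log2 -0.51, -0.18, -0.38 and -0.46 in that order. They were picked by correlation over arrays that include the group differences of hgo. A shared direction therefore largely follows from the choice, and nothing is read from it. Within groups their deviations from the mean correlated with those of hgo at 0.29, 0.00, 0.57 and 0.15. The genes most like Faa were Pgm2a, a phosphoglucomutase (0.97), the purine synthesis gene Gart (0.94), the serine hydroxymethyltransferase Shmt (0.94) and CG8745 (0.93). All 4 were higher at 50 mM in both genotypes, Pgm2a by 0.54 in the mutant and 0.33 in the wild type. This too largely follows from how they were picked. Within groups their deviations correlated with those of Faa at 0.85, 0.56, 0.71 and 0.58. For hgo and Faa alike, these deviations are part of the r used for picking, so nothing is read from them either.

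The remaining steps of tyrosine breakdown were measured through Tat, Hpd, GstZ1 and GstZ2, a list of 4 genes with 1 tested probe set each, tested in limma over all 11261 probe sets. This list and those below were drawn up with earlier results of these arrays known. Their adjusted p-values carry that limit. Hpd, the enzyme just before hgo, rose in the mutant at 50 mM. Its signal was 4043.5, 4397 and 4034 in Shu_50 heads and 3451, 3111 and 3374 in Shu_0 heads (log2 0.33 ± 0.06, adjusted p = 0.00999 in limma), and the arrays did not overlap. In the wild type it was 3775, 3509 and 3512 in CS_50 heads and 3550.1, 3169.8 and 3592 in CS_0 heads, which overlapped (log2 0.07 ± 0.06, adjusted p = 0.725). The difference between these responses was 0.26 ± 0.09 and was not called (interaction adjusted p = 0.677). The call of Hpd in the mutant was lost without the intensity trend (adjusted p = 0.0954).

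Hpd was not called between the genotypes. Untreated, it averaged 3312 ± 178 in Shu_0 and 3437 ± 233 in CS_0 (SD; log2 -0.05 ± 0.06, adjusted p = 0.712), with overlapping arrays. At 50 mM it was higher in Shu_50 than in CS_50 without overlap (log2 0.21 ± 0.06, adjusted p = 0.186 in limma). Arrays did not overlap in that comparison for 18.9% of all probe sets. GstZ2 was 154, 142 and 146 in Shu_50 heads and 135, 118 and 96.6 in Shu_0 heads, without overlap and not called (log2 0.33 ± 0.11, adjusted p = 0.169), but it passed without both outermost arrays (log2 0.44, adjusted p = 0.0492). GstZ2 was also higher in Shu_50 than in CS_50 without overlap, and not called (log2 0.19 ± 0.11, adjusted p = 0.512 in limma). Tat and GstZ1 were not called in any of the 5 comparisons, with differences of -0.09 to 0.10 over both genes. None of the 4 genes was called in Shu_0 against CS_0, where 5.06% of all probe sets were. None had an unadjusted p under 0.05 in limma there, while 2252 of all 11261 did. With only 4 probe sets nothing is read from this. The list median there was -0.05, beside 0.01 for all probe sets. In Shu_50 against Shu_0 the list median was 0.19, beside -0.01 for all probe sets.

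**Figure D2:**
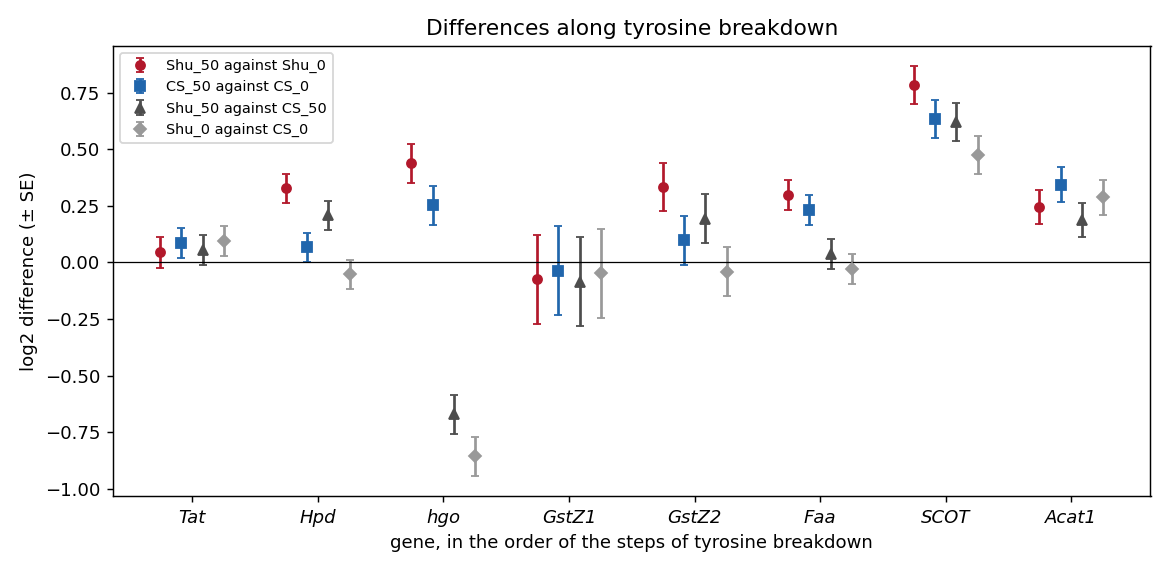
log2 difference ± SE (vertical axis) for 8 genes in the order of the steps from tyrosine to acetyl-CoA, in 4 comparisons of 3 arrays against 3. The hgo points for both genotype comparisons lie at -0.67 and -0.86, while those of Tat, Hpd, GstZ1, GstZ2 and Faa lie between -0.09 and 0.21, and the 50 mM differences of Hpd, hgo, GstZ2, Faa, SCOT and Acat1 in the mutant lie between 0.24 and 0.78.

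Of the list drawn up around the end products of the chain, acetoacetate metabolism and the aspartate aminotransferases, 5 genes had a tested probe set. SCOT, which activates acetoacetate with coenzyme A, was called higher in all 4 group comparisons. Its signal was 620.0, 559 and 560.2 in Shu_50 heads, 321, 387 and 299.7 in Shu_0 heads, 373, 381 and 368 in CS_50 heads, and 249.96, 244 and 223 in CS_0 heads. The mutant exceeded the wild type by 0.47 ± 0.08 untreated (adjusted p = 0.00556 in limma) and by 0.62 ± 0.08 at 50 mM (adjusted p = 0.00109), the opposite direction to hgo. In the untreated comparison the call did not survive the removal of both outermost arrays (adjusted p = 0.0825) or of the intensity trend (adjusted p = 0.0602). At 50 mM against none, SCOT rose by 0.78 ± 0.08 in the mutant and by 0.63 ± 0.08 in the wild type.

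Acat1, an acetyl-CoA acetyltransferase, was called higher in CS_50 than in CS_0 (284 ± 22.4 against 222 ± 11.4, SD; log2 0.34 ± 0.08, adjusted p = 0.0300 in limma). It was also called higher in Shu_0 (273 ± 19.4) than in CS_0 (log2 0.29 ± 0.08, adjusted p = 0.0402). Both calls were lost under 9 of 15 alternatives. The first was lost without CS_0 replicate 1 or 2 (adjusted p = 0.0919 and 0.1001) or CS_50 replicate 1, 2 or 3 (0.116, 0.0782 and 0.0525). It was also lost under quantile normalization (adjusted p = 0.0624), without the trend (0.115), on the arrays of the comparison alone (0.0557) and without both outermost arrays (0.0515). The second was lost without CS_0 replicate 1, 2 or 3 (adjusted p = 0.0887, 0.110 and 0.0657) or Shu_0 replicate 1 or 3 (0.0936 and 0.144), and likewise without the filter (0.0554), without the trend (0.101), on the arrays of the comparison alone (0.0916) and without both outermost arrays (0.137). Hmgs, which makes the precursor of ketone bodies and sterols, was not called in any comparison (differences of -0.20 to 0.15).

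The aspartate aminotransferases, which move amino groups between amino acids and oxoacids, rose in the mutant at 50 mM. Got2 was 6063, 6119.7 and 6006.5 in Shu_50 heads and 4796, 4547 and 4907 in Shu_0 heads (log2 0.35 ± 0.06, adjusted p = 0.00164 in limma), a call kept under all 15 alternatives. Got2 differed in the wild type by 0.10 ± 0.06 (adjusted p = 0.503), but under quantile normalization by 0.24 ± 0.05, which passed (adjusted p = 0.0175). The interaction of 0.26 ± 0.08 was not called (adjusted p = 0.647). Got1 rose by 0.37 ± 0.07 in the mutant (3050.1 ± 276 in Shu_50, 2353 ± 199 in Shu_0, SD; adjusted p = 0.00952), which did not pass once replicate 3 of Shu_0 (adjusted p = 0.0648) or of Shu_50 (adjusted p = 0.0557) was removed, nor without both outermost arrays (adjusted p = 0.0501) or without the trend (adjusted p = 0.0999). Between Shu_0 and CS_0, Got1 was not called (log2 -0.22 ± 0.07, adjusted p = 0.0948) but passed without Shu_0 replicate 2 (log2 -0.28, adjusted p = 0.0376). Over the 5 measured genes of this list, limma called 3 higher at 50 mM in the mutant and 2 in the wild type. Of all probe sets, 1.21% and 0.995% were called higher. Called or not, 4 of the 5 had a positive difference in the mutant and 5 in the wild type, with medians of 0.35 and 0.15.

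The cofactor of phenylalanine hydroxylase is made and recycled by 5 listed genes, all with a tested probe set. pr, whose enzyme 6-pyruvoyltetrahydropterin synthase acts in both cofactor and red eye pigment synthesis, moved in the opposite direction to hgo in the mutant. Its signal was 1155, 1249 and 1111 in Shu_50 heads and 1604, 1449.6 and 1346 in Shu_0 heads (log2 -0.32 ± 0.08, adjusted p = 0.0428 in limma). In the wild type it was 1086, 1001 and 935 in CS_50 heads and 1164, 1073 and 1247 in CS_0 heads, with overlap (log2 -0.20 ± 0.08, adjusted p = 0.244). Untreated, pr was higher in the mutant (log2 0.33 ± 0.08, adjusted p = 0.0211). This untreated difference did not pass after removal of replicate 1 of Shu_0 (adjusted p = 0.118) or replicate 2 of CS_0 (adjusted p = 0.0791), nor without both outermost arrays (adjusted p = 0.136) or without the trend (0.102). The call at 50 mM in the mutant was lost without Shu_0 replicate 1 or 2 (adjusted p = 0.219 and 0.0802) or Shu_50 replicate 1 or 3 (0.149 and 0.171), and without both outermost arrays (0.180). It was also lost without the filter (0.0710), without the trend (0.201) and on the arrays of the comparison alone (0.0637), 8 of 15 alternatives in all.

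None of the other cofactor genes was called by limma. Pu, the GTP cyclohydrolase that starts the cofactor's synthesis, was 1931 in Shu_50 and 2309 in Shu_0 on average (log2 -0.26 ± 0.08, adjusted p = 0.132), and 1980.3 in CS_50 and 2302 in CS_0 (log2 -0.22 ± 0.08, adjusted p = 0.215), without overlap in either genotype. In the mutant, Pu passed without Shu_50 replicate 2 (log2 -0.34, adjusted p = 0.0274). Pcd, which recycles the cofactor, was 621, 604 and 599 in Shu_0 heads and 574, 530 and 450 in CS_0 heads (log2 0.24 ± 0.07, adjusted p = 0.0728), and passed without CS_0 replicate 1 (log2 0.31, adjusted p = 0.0269). Sptr and Dhpr, which complete and regenerate the cofactor, had differences of -0.08 to 0.17 over the 4 group comparisons. Over the 5 genes the median was 0.07 in Shu_0 against CS_0 and -0.13 in Shu_50 against Shu_0, beside 0.01 and -0.01 for all probe sets.

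**Figure D3:**
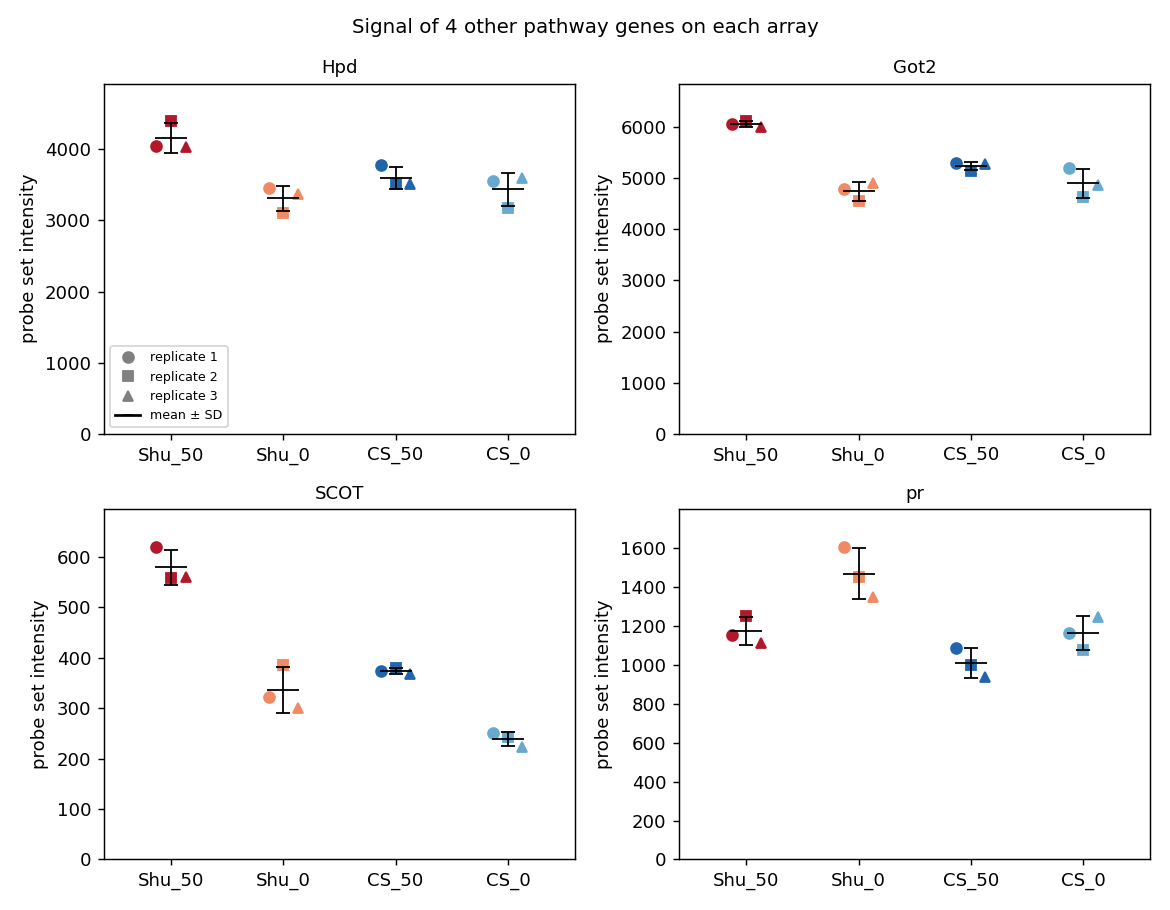
Probe set intensity of Hpd, Got2, SCOT and pr by group, on linear axes from 0. Points are arrays, marked by replicate number, and bars are the mean ± SD of 3 arrays. Shu_50 is the highest group for Hpd, Got2 and SCOT, and Shu_0 the highest for pr (1346 to 1604).

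Other uses of phenylalanine and tyrosine were followed through 10 genes, all tested. The tyrosine hydroxylase ple, which opens dopamine synthesis, was lower in the mutant without treatment (72.5, 91.4 and 72.2 in Shu_0 heads, 100.1, 128 and 121 in CS_0 heads; log2 -0.53 ± 0.14, adjusted p = 0.0466 in limma). That call was lost without CS_0 replicate 2 or 3 (adjusted p = 0.131 and 0.154) or Shu_0 replicate 1 or 3 (0.169 and 0.138), and with the replicate number as a block (0.0586). With both outermost arrays removed the adjusted p was 0.347. The call of ple was also lost without the filter (0.0787), without the trend (0.116) and on the arrays of the comparison alone (0.0553), 9 of 15 alternatives in all. TyrRS, which charges tRNA with tyrosine, rose at 50 mM in the wild type (log2 0.34 ± 0.08, adjusted p = 0.0304). That call was lost without CS_0 replicate 1 or 3 (adjusted p = 0.0744 and 0.133) or CS_50 replicate 2 or 3 (0.137 and 0.164), without both outermost arrays (0.156) and without the trend (0.134). In the mutant TyrRS was 355, 317 and 341 in Shu_50 heads and 289.8, 314 and 275 in Shu_0 heads (log2 0.20 ± 0.08, adjusted p = 0.264). Ddc, which decarboxylates dopa to dopamine, showed differences of -0.06 to 0.09. The 2 tyrosine decarboxylases Tdc1 and Tdc2, the phenoloxidases PPO1 and PPO2, and the 3 phenylalanyl-tRNA synthetase genes PheRS-m, alpha-PheRS and beta-PheRS were not called in any comparison.

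Across these 4 lists together, 24 of 26 genes had a probe set and all 24 were tested. In the mutant at 50 mM, 4 were called higher and 1 lower, where 1.21% and 0.648% of all probe sets were. In the wild type at 50 mM, 3 were called higher and none lower, where 0.995% and 0.622% of all were. In Shu_0 against CS_0, 3 were called higher and 1 lower, where 2.11% and 2.95% of all were. In Shu_50 against CS_50 the 1 called gene was SCOT, higher, where 0.329% of all were. No gene was called in the interaction, where 0.00888% of all were. An unadjusted p under 0.05 in limma was met by 7 higher and 2 lower genes in the mutant at 50 mM. In the wild type at 50 mM it was met by 5 and 3. In Shu_0 against CS_0 the numbers were 5 and 2, in Shu_50 against CS_50 5 and 3, and in the interaction 4 and 0. Over all 11261 probe sets, in the same order, 1339, 1479, 2252, 1307 and 758 met it in either direction. These comparisons share groups with each other, so their counts are not independent. The lists were also drawn up with earlier results of these arrays known, so nothing is read from the counts beside the shares.

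Position was not used to choose the genes. Of the 10 annotated genes nearest to hgo on 2L, 5 on each side, 6 had 7 tested probe sets. None of these 7 was called in Shu_0 against CS_0 by limma, where 5.06% of all probe sets were. Of the 7, 1 had an unadjusted p under 0.05 in limma, as did 2252 of all 11261. The 7 differences ran from -0.20 (Csl4) to 0.34 (RfC38). The closest measured neighbours, CG4751 and CG6287, differed by 0.01 and -0.01. At 50 mM in the mutant, CG6287 rose by 0.39 ± 0.05 (adjusted p = 0.000458 in limma). No other probe set of the 7 was called there, where 1.86% of all were. Of the 10 genes around Faa on 3L, 5 had a tested probe set. Among them limma called CG14989 (-0.29 ± 0.07, adjusted p = 0.0194) and CG14995 (-0.26 ± 0.06, adjusted p = 0.0306) lower in Shu_0 than in CS_0, while Faa itself was not. Of all probe sets, 2.95% were called lower in this comparison and 5.06% in either direction. The calls of these neighbours were not recomputed under the alternatives. Over the whole array, this comparison's count fell from 570 to 31 without the 2 outermost arrays.

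**Figure D4:**
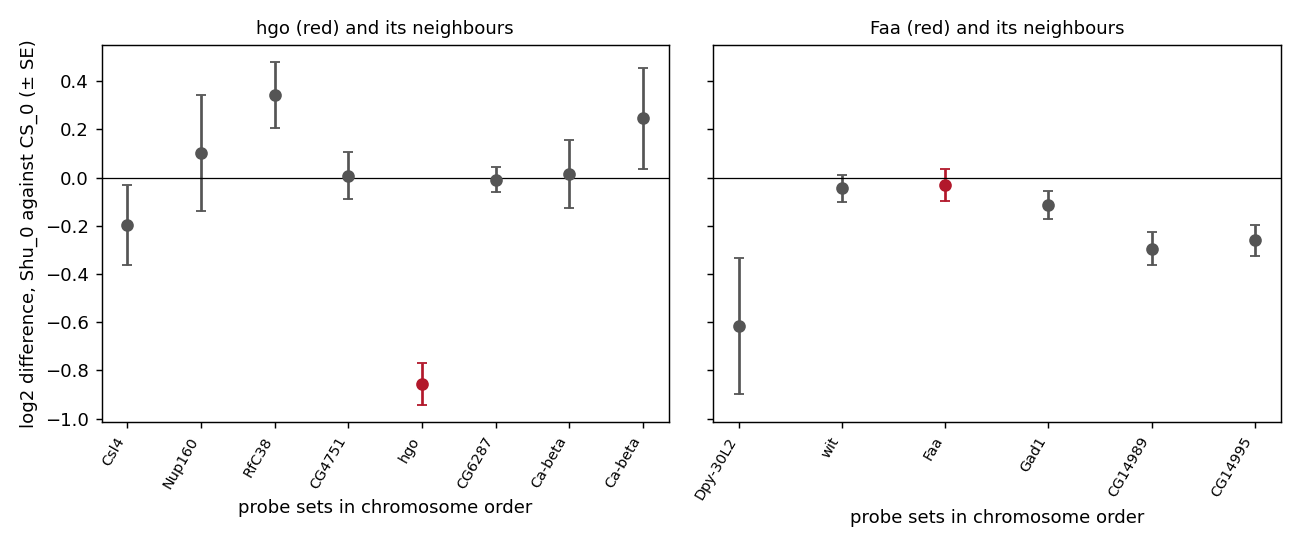
log2 difference ± SE between Shu_0 and CS_0 for hgo (left) and Faa (right), each in red, and the tested probe sets of their 5 nearest genes on each side in grey, in chromosome order without scale. hgo at -0.86 lies below its 7 neighbouring probe sets, which run from -0.20 to 0.34, and Faa at -0.03 lies above its 5, which run from -0.62 to -0.04.

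Summed intensities of tissue markers differed between some of these groups. A sum weights the brightest genes most, so median log2 differences over the markers are given beside it. The fat body is the fly's main organ of amino acid metabolism, and 14 of 16 listed fat body markers were measured, none at 0. Their summed intensity was 31427 to 33407 in Shu_50, 33223 to 37895 in Shu_0, 28289 to 30712 in CS_50 and 31624 to 36165 in CS_0. The sums of Shu_0 and CS_0 overlapped (median difference 0.12), and so did those of Shu_50 and Shu_0 (-0.08). The sum was higher in Shu_50 than in CS_50 (median 0.11) and lower in CS_50 than in CS_0 (median -0.04). Single markers went both ways. Between Shu_0 and CS_0, limma called Lsp2 (0.41) and Lsd-1 (0.72) higher and Pepck1 (-0.61) lower, and between Shu_50 and Shu_0 it called Pepck1 (0.61) higher and apolpp (-0.40) and Tsf1 (-0.54) lower. In both comparisons Pepck1 differed in the same direction as hgo. Between CS_50 and CS_0, apolpp (-0.41) and Tsf1 (-0.54) were called lower, and no fat body marker was called between Shu_50 and CS_50. The eye pigment list, of which 5 of 9 genes were tested and which holds pr, summed to 1948 to 2179 in Shu_50, below the 2289 to 2536 in Shu_0, which lay above the 1924 to 2038 in CS_0. The median difference of this list was -0.20 in Shu_50 against Shu_0 and 0.16 in Shu_0 against CS_0. The 3 yolk protein genes, markers of females, summed to 33720 to 41317 in Shu_0 and 34940 to 38221 in CS_0, and to 29312 to 30121 in CS_50, below CS_0. Their median difference was 0.05 in Shu_0 against CS_0 and -0.29 in CS_50 against CS_0, and none was called. Muscle markers, 7 of 9 measured, summed to 16093 to 16673 in Shu_0, below the 16704 to 17896 in CS_0, and to 17155 to 18288 in Shu_50, above both Shu_0 and the 16091 to 16926 in CS_50. Their median difference was -0.08 in Shu_0 against CS_0, 0.16 in Shu_50 against Shu_0 and 0.09 in Shu_50 against CS_50. Glial markers, 9 of 10 measured, summed to 11320 to 11722 in Shu_50, below the 11799 to 12677 in Shu_0 (median difference -0.13). The photoreceptor sum was 30218 to 31379 in CS_50, below the 33785 to 36330 in CS_0, and the glial sum was 11287 to 12240 in CS_50, below the 12486 to 14323 in CS_0. The median differences there were -0.11 and -0.12. In Shu_50 the photoreceptor sum was 31447 to 38395, above CS_50 (median difference 0.14). Sums of neuron and hemocyte markers overlapped in all 4 comparisons. Outside the fat body list, limma called wrapper (-0.85) and Mlc2 (-0.33) lower and ry (0.48) higher in CS_50 against CS_0. In Shu_50 against Shu_0 it called Act87E (0.50) higher and pr (-0.32) lower. In Shu_0 against CS_0 it called Gat (0.22), se (0.30) and pr (0.33) higher and nrv2 (-0.52), sls (-0.46) and srp (-0.30) lower. Over all marker lists the adjusted p of the calls in limma ran from 6.7e-05 (Act87E) to 0.0465 (Gat). Of all probe sets, 1.62% were called in CS_50 against CS_0, 1.86% in Shu_50 against Shu_0 and 5.06% in Shu_0 against CS_0. Apart from pr, the marker calls were not recomputed under the alternatives. For the control gene eIF-4a, the 3' signal over the 5' signal, a sign of RNA quality, was on the log2 scale 2.46 to 2.65 in Shu_0 and 2.43 to 2.51 in CS_50, against 2.66 to 2.96 in CS_0, without overlap in either case. For GAPDH, CS_50 (0.875 to 0.987) lay below CS_0 (0.997 to 1.08), while Shu_0 (0.962 to 1.07) overlapped CS_0. For actin, Shu_0 (0.978 to 1.26) and CS_50 (1.05 to 1.24) both overlapped CS_0 (1.18 to 1.28). The part of these marker and 3' to 5' differences in these results was not tested.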

How the data were processed

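The deposited values are linear probe set intensity, one column per array. Per the labels' protocols, total RNA was labelled by a standard Affymetrix protocol, and the software behind the intensity values is not given in the sources used here. All 12 deposited columns had a mean of 150 after trimming 2% at each end, so they had been scaled before deposit and were kept as they are. The label of CS_50 replicate 2 gives another sample number in its description, and the number in its title was used. The 25th percentile of all values, 6.16, was added before log2. Of 18952 probe sets, 183 were controls, and those at or above the 40th percentile of mean log2 value were tested. Of the 11261 tested, 9613 named exactly 1 gene. Names came from the platform annotation, matched by Entrez number to genome release 6.

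The test was limma 3.58.1 (R 4.3.3; lmFit, then eBayes with trend), two-sided, on 12 arrays with 8 residual degrees of freedom and with p-values adjusted over all tested probe sets. Intervals are 95% from the same fit. The number of arrays limits precision. The procedure was tested on simulated data. Figures used matplotlib 3.10.9 under Python 3.11.15.

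The 3 genes, the gene lists and the tests were chosen with earlier results of these data known. The rule for named genes took the 3 genes, the 4 pathway lists, called neighbours among 5 genes on each side, and for each measured gene the 4 others of highest Pearson r over the 12 arrays. Marker lists of 8 tissues or cell types were summed per array. The numbers of replicates were checked for pairing: deviations of same-numbered arrays correlated at -0.06 to 0.09 over the 4 comparisons, so the numbers were not treated as pairs.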

Additional observations from a re-analysis of the deposited data

How the results depend on the processing

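The alternatives changed the normalization (quantile), the offset (1, or 12.3), the dim-signal filter (none, or 60th percentile), the trend (none), the block (replicate number) and the arrays fitted (those compared, all but each array, all but CS_0 replicate 3 and Shu_0 replicate 1). The differences of hgo and Faa moved by less than the spread between replicates under every one of these. Since both genes were chosen on these arrays, this is no evidence of stability. With the replicate block (numbers that did not pair the arrays), the hgo differences kept their values of -0.86 and -0.67 and no call of hgo or Faa changed, ple lost its call, and the count in Shu_50 against CS_50 was 100 instead of 57.

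Counts of called probe sets over the whole array moved more, and the cause was not tested. For CS_50 against CS_0 the count of 182 became 118 without the filter, 44 without the trend and 89 without the 2 outermost arrays, and leaving out single arrays gave 76 to 159. For Shu_50 against Shu_0 the count of 209 became 91 without the trend and 139 without those 2 arrays, with 128 to 238 for single arrays. For Shu_0 against CS_0 the count of 570 became 59 without the trend, 314 from the arrays of the comparison alone and 31 without the 2 outermost arrays, with 130 to 695 for single arrays. For Shu_50 against CS_50 the count of 57 became 25 without the trend, with 30 to 67 for single arrays. The interaction's count of 1 (758 at an unadjusted p under 0.05 by limma) became 0 under quantile normalization, without the filter, with the stricter filter and without the trend (709, 1192, 561 and 700 at that unadjusted p), 2 with the replicate block, and 0 to 1 for single arrays. For the other pathway genes, each gene was counted once per comparison and alternative, so 1 call can be lost several times. Of these recomputations, 52 lost a call, 5 gained one (Got2, GstZ2, Pu, Pcd and Got1, 1 each), 1853 did not change and none reversed.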
